A study of Mus musculus with 8 samples.

Results

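H3K27ac, a histone mark of active promoters and enhancers, was examined at 10 genes that set whether a cell dies by apoptosis. They were chosen by name, as members of the BCL2 family or as death receptors, with earlier results of these data known. They are 4 BH3-only genes (Bcl2l11, Bbc3, Bid and Pmaip1), 2 genes of anti-apoptotic proteins (Bcl2l1 and Mcl1), 2 genes of pore-forming effectors (Bax and Bak1) and 2 death receptor genes (Fas and Tnfrsf10b), of 55341 gene symbols in GENCODE release M21. Mouse primary hepatocytes (MPH) from adult male WT mice of the C57Bl6 background (C57BL/6J in the study's methods) were treated for 4 h with 1 µM thapsigargin, which empties the calcium store of the endoplasmic reticulum (ER) and so induces ER stress (ERS), or with vehicle (0.04% DMSO). For each treatment there were 3 libraries of H3K27ac, made in independent experiments, and 1 of input. Neither group carried a transgene or a deletion. The question was which of these genes lie in regions where the mark changed upon ERS.

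BCL2 family proteins meet at the mitochondrial outer membrane. Anti-apoptotic members hold BAX and BAK in check, BH3-only proteins relieve that hold or activate BAX and BAK directly, and the pores that BAX and BAK form release cytochrome c. Death receptors start the process from the plasma membrane through caspase-8, and in hepatocytes this signal is passed on to mitochondria by BID. Prolonged ERS is known to reach the same machinery through the transcription factors ATF4 and CHOP.

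The data are 3 lists of regions on mm10, with positions and no values. They hold 5508 H3K27ac UP, 3376 H3K27ac DOWN and 23312 unchanged regions, 32196 in all. The authors tested pooled peaks for a difference between treatments. A changed region had an FDR no higher than 0.05 and was named UP where its UP bins outnumbered its DOWN bins by a ratio of 2 or more, and DOWN where that ratio was 0.5 or less. Regions with a higher FDR were named unchanged, which means that the test was not passed. A peak that passed it with a ratio between these limits is in no list. The lists carry no signal, fold change, p-value or value per library. The depth is unknown, and the values below carry no error between experiments. The sizes given are widths and distances in base pairs, not amounts of the mark, and since whole cultures were measured, a change in fewer cells and a smaller change in all cells cannot be told apart.

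The labelled cell type was checked against marker genes. A transcription start site (TSS) in a region was found for 5 of 6 hepatocyte markers (all but Cyp2e1), in regions from 5284 bp to 14886 bp wide. It was found for 1 of 5 markers of Kupffer cells or other leukocytes (Cd68, 5327 bp) and 0 of 3 of stellate cells. Of endothelial cells it was found for 1 of 4 (Stab2, 3913 bp) and of cholangiocytes for 1 of 3 (Sox9, 2906 bp). The part of such cells in the regions at the genes below was not tested.

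Of the 10 genes, 8 had a TSS in a H3K27ac region. For 4 of them (Bbc3, Bcl2l1, Mcl1 and Bax) that region was H3K27ac DOWN, for the other 4 (Bcl2l11, Bid, Bak1 and Fas) it was unchanged, and for 0 it was UP. Pmaip1 and Tnfrsf10b had no TSS in a region. As background, 12261 genes had a TSS in a region of some class. It was DOWN for 8.91% of them, UP for 21.4% and unchanged for 73.7%, with genes counted in each class they had. DOWN regions were wider than others, so the share depended on width. Genes were therefore split into 10 equal groups by the width of their widest region at a TSS. Bbc3, Bcl2l1 and Mcl1 fell in the widest group (from 5525 bp), where DOWN regions held a TSS of 31.7% of genes and UP regions of 28.5%. Bax fell in the group from 1018 bp to 1276 bp, where the shares were 2.05% and 18.1%. Bbc3, Bcl2l1 and Mcl1 also belong to the study's list of UBQ genes, which carry a broad H3K4me3 domain in many tissues. Of the 10 genes, 0 belong to its list of LIVER-ID genes, which carry such a domain preferentially in liver. The share of either list with a TSS in a DOWN region is not given here, so the membership is not linked to the class.

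**Figure D1:**
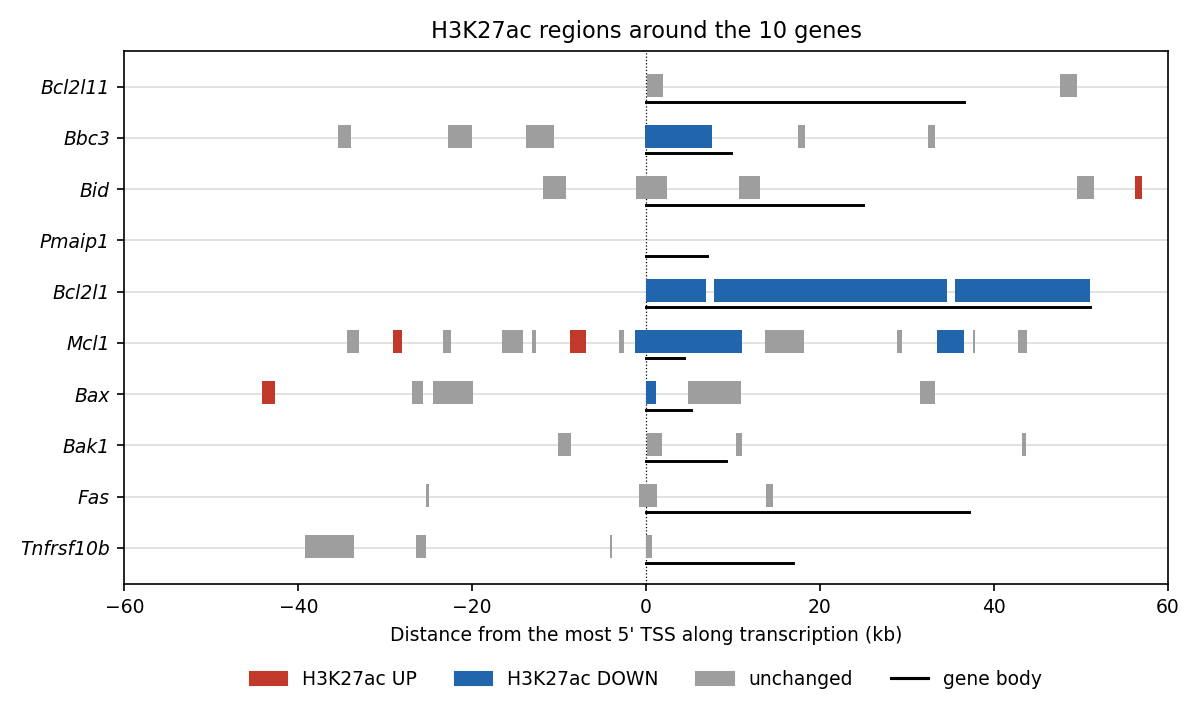
H3K27ac regions around each of the 10 genes, with the distance from the most 5′ TSS along the direction of transcription in kb on the horizontal axis and 1 gene per row. Boxes are UP (red), DOWN (blue) and unchanged (grey) regions at their width, with those under 0.3 kb drawn at 0.3 kb, and black lines are gene bodies. DOWN regions lie at the TSSs of Bbc3, Bcl2l1, Mcl1 and Bax, the 3 DOWN regions of Bcl2l1 fill its gene, and Pmaip1 has no region in the window.

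Around the 10 genes, 46 regions overlapped the gene or lay within 50 kb of one of its TSSs, and 4 of these were UP, 7 DOWN and 35 unchanged. Of all 32196 regions, 5508 were UP, 3376 DOWN and 23312 unchanged. Bcl2l1 alone had 3 of the 7 DOWN regions. Each gene is described in turn, by its role.

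Bcl2l1 encodes BCL-XL, an anti-apoptotic protein on which hepatocytes depend. The gene extends over 51061 bp on the minus strand (mm10, chr2:152780668-152831728) and has 9 annotated transcripts. Its first DOWN region, chr2:152824830-152831722, was 6893 bp wide and held the TSSs of 8 of the 9. The TSS of the ninth, at the 5′ end, lay 6 bp outside it. The second, chr2:152797100-152823947, was 26848 bp wide, lay wholly in an intron and was number 8 by width among the 3376 DOWN regions. The third, chr2:152780702-152796151, was 15450 bp wide, held 1581 bp of exon at the 3′ end of the gene and was number 37 by width. It lay in Bcl2l1, but the nearest protein-coding TSS was that of Cox4i2 (25608 bp). Gaps of 882 bp and 948 bp separated the 3. Together they spanned 51021 bp, covered 96.3% of the gene and lay inside it at both ends. DOWN regions covered at least as large a share in 48 of 21911 protein-coding genes (0.219%), a total that includes genes without any region. Of that total, 4489 had a DOWN region within 50 kb of a TSS, so the share among genes with a DOWN region is larger. No other region of any class lay within 50 kb of its TSSs, and the nearest UP region was 156 kb away.

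The 250 bases before the 5′-most start of Bcl2l1, chr2:152831729-152831978 on the minus strand (RefSeq, GRCm38.p6), show where the DOWN region stops, as they lie outside every region and are written in lower case throughout for that reason.

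Bcl2l1: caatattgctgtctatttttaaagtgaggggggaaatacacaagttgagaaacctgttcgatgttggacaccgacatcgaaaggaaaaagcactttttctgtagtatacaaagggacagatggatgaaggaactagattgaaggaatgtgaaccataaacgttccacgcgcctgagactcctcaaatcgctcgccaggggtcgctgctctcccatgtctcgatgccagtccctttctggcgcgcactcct

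This stretch has a GC content of 47.6% and 12 CG dinucleotides, beside medians of 52.4% and 6 over 32851 RefSeq promoter windows of the mouse.

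Mcl1 encodes the other anti-apoptotic protein that hepatocytes need, one with a short half-life. Its gene is compact (4389 bp, plus strand, chr3:95658788-95663176). The DOWN region chr3:95657555-95669804 was 12250 bp wide, number 69 among DOWN regions. It started 1233 bp upstream of the TSS, covered 100% of the gene and went on to 11016 bp downstream of the TSS, so that 35.8% of it lay in the gene. Both annotated TSSs were in it. DOWN regions covered the whole gene in 47 of the 21911 protein-coding genes with or without a region (0.215%), Mcl1 included. Cover also depends on gene length, and this region was wider than the gene.

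Of the 10 genes, Mcl1 had the most regions around it, 13 within 50 kb beside a median of 4 over protein-coding genes with any. An UP region of 1877 bp, chr3:95649998-95651874, lay 6.91 kb upstream, and Mcl1 was the protein-coding gene with the nearest TSS. A second UP region of 990 bp, chr3:95629702-95630691, lay 28.1 kb upstream, nearer to Ensa (4682 bp). A second DOWN region of 3073 bp, chr3:95692234-95695306, lay 33.4 kb downstream, nearer to Adamtsl4 (4317 bp). The 9 unchanged regions were from 328 bp to 4580 bp wide, and 1 of them (661 bp) lay between the nearer UP region and the DOWN region at the gene. UP and DOWN regions were thus equal in number (2 of each) around Mcl1, but UP regions summed to 2867 bp and DOWN regions to 15323 bp.

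The 250 bases before its annotated RefSeq start, chr3:95658471-95658720 on the plus strand, lie wholly in the DOWN region and are shown as the promoter of the gene that this region covers. They have a GC content of 64.4% and 26 CG dinucleotides.

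Mcl1: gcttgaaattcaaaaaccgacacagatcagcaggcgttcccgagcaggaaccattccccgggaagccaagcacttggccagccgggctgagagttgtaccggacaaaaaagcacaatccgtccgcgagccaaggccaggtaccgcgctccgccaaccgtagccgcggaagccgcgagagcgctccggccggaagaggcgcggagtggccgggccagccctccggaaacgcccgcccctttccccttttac

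Bbc3 encodes PUMA, a BH3-only protein that binds all anti-apoptotic members and is a classical target of p53. Its gene is on the plus strand, chr7:16308393-16318205, and all 4 annotated TSSs lay in 1 DOWN region, chr7:16308298-16315954. The region was 7657 bp wide, number 241 among DOWN regions, started 95 bp upstream of the 5′-most TSS and covered 77.1% of the gene, mostly intron (6526 bp of intron and 1036 bp of exon). At least this cover by DOWN regions was found in 59 of the 21911 protein-coding genes with or without a region (0.269%). The other 5 regions within 50 kb were unchanged, from 802 bp to 3292 bp wide, and those farthest upstream held TSSs of Inafm1 and Ccdc9. The nearest UP region was 99.0 kb away.

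Stretches of 250 bases before 2 RefSeq starts of Bbc3 inside the DOWN region, chr7:16309333-16309582 and chr7:16310011-16310260 on the plus strand, are shown for the motif matches they hold. The capitals mark, in the first, a match to the p53 site with up to 3 mismatches and, in the second, a match to the FOXO motif TGTTTAC.

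Bbc3, first start: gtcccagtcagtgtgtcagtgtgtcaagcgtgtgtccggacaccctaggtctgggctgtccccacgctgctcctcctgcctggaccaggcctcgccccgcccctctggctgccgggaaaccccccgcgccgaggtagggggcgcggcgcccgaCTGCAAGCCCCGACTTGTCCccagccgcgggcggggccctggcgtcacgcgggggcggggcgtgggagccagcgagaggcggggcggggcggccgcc
Bbc3, second start: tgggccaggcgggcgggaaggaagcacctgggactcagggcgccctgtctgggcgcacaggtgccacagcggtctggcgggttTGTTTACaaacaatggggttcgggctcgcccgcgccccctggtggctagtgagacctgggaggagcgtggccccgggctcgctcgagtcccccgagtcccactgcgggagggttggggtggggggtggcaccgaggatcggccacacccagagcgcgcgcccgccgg

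The p53 match starts 97 bases and the FOXO match 167 bases before the respective start. GC content is 76.4% and 72.4%, and the stretches hold 27 and 23 CG dinucleotides.

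Bax encodes a pore-forming effector that moves from the cytosol to mitochondria when activated. Its gene is on the minus strand, chr7:45461697-45466898, and the TSSs of its 6 transcripts lay in a DOWN region of 1184 bp, chr7:45465771-45466954. This was a narrow region, number 2706 of 3376 by width. It reached from 56 bp upstream to 1127 bp downstream of the 5′-most TSS and covered 21.7% of the gene, with 826 bp of exon and 302 bp of intron. At least this cover by DOWN regions was found in 297 of the 21911 protein-coding genes with or without a region (1.36%). The 3′ end of the gene held 361 bp of an unchanged region of 6078 bp, chr7:45455980-45462057, at the TSSs of Ftl1, Gm10252 and Gm22133. An UP region of 1532 bp, chr7:45509539-45511070, lay 42.6 kb upstream at the TSS of Nucb1, and the other 3 regions within 50 kb were unchanged.

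The 250 bases before the 5′-most start of Bax, chr7:45466899-45467148 on the minus strand, show the upstream edge of this region. Capitals mark the 56 bases that lie inside the DOWN region. The GC content is 54.0%, with 14 CG dinucleotides.

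Bax: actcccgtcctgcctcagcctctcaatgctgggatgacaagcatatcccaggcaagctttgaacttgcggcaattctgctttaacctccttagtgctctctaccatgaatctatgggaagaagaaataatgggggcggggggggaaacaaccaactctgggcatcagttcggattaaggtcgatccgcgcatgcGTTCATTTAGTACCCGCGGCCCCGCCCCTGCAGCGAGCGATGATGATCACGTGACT

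Bak1, the gene of the effector that resides at mitochondria, lay in a region of another class than Bax. It is on the minus strand, chr17:27019810-27029009, and 3 of its 4 TSSs were in an unchanged region of 1747 bp, chr17:27027197-27028943, with the 5′-most TSS 66 bp outside. The other 3 regions within 50 kb were unchanged too, from 418 bp to 1507 bp wide, 1 of them at the TSS of Ggnbp1. The nearest UP region was 443 kb away and the nearest DOWN region 328 kb away.

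The other BH3-only genes had no DOWN region within 50 kb. Bcl2l11 encodes BIM, which CHOP is known to raise in ERS (plus strand, chr2:128126038-128162547). An unchanged region of 1916 bp, chr2:128126089-128128004, held the TSS of 1 of its 8 transcripts, a non-coding one at 128127575. The 6 transcripts at the 5′ end start between 39 bp and 51 bp upstream of the region, so Bcl2l11 counted as a gene with a TSS in a region only through the non-coding transcript. A second unchanged region of 1992 bp lay 47.6 kb downstream. The nearest UP region was 168 kb away and the nearest DOWN region 1100 kb away.

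Bid encodes the protein that caspase-8 cuts to join death receptors to mitochondria (minus strand, chr6:120891930-120916853). An unchanged region of 3630 bp, chr6:120914415-120918044, held the TSSs of 4 of its 5 transcripts and that of the non-coding gene Gm44260. A second unchanged region of 2474 bp, chr6:120903752-120906225, lay in an intron. An UP region of 794 bp, chr6:120859835-120860628, lay 36.9 kb from the TSS of a retained-intron transcript of Bid but 56.2 kb from its 5′-most TSS, and the nearest protein-coding TSS was that of Bcl2l13 (23597 bp). The nearest DOWN region was 86.9 kb away.

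Pmaip1 encodes NOXA, a BH3-only protein that binds MCL1 and a known target of p53 and ATF4. The gene (plus strand, chr18:66458533-66465565) had no region of any class within 50 kb, as was the case for 5718 of 21911 protein-coding genes (26.1%). The nearest was an UP region of 739 bp, chr18:66404199-66404937, 53.6 kb upstream, and the nearest DOWN region lay 787 kb away.

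Both death receptor genes lay among unchanged regions. Fas (plus strand, chr19:34290666-34327772), the receptor through which hepatocytes are classically killed, had 4 of its 5 transcripts start in an unchanged region of 2077 bp, chr19:34289805-34291881. A second one of 889 bp lay in an intron, and another of 386 bp lay 24.9 kb upstream. Its nearest DOWN region was 210 kb and its nearest UP region 1620 kb away, the greatest distance to an UP region among the 10 genes. Tnfrsf10b encodes DR5, the mouse receptor for TRAIL and a known target of CHOP (plus strand, chr14:69767472-69784411). An unchanged region of 592 bp, chr14:69767508-69768099, began between 23 bp and 36 bp downstream of the TSSs at its 5′ end, so no TSS lay in it. The other 3 regions within 50 kb were unchanged, at 5593 bp, 1165 bp and 261 bp, the widest at the TSSs of Chmp7 and 4930480K23Rik. The nearest DOWN region was 279 kb and the nearest UP region 318 kb away.

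**Figure D2:**
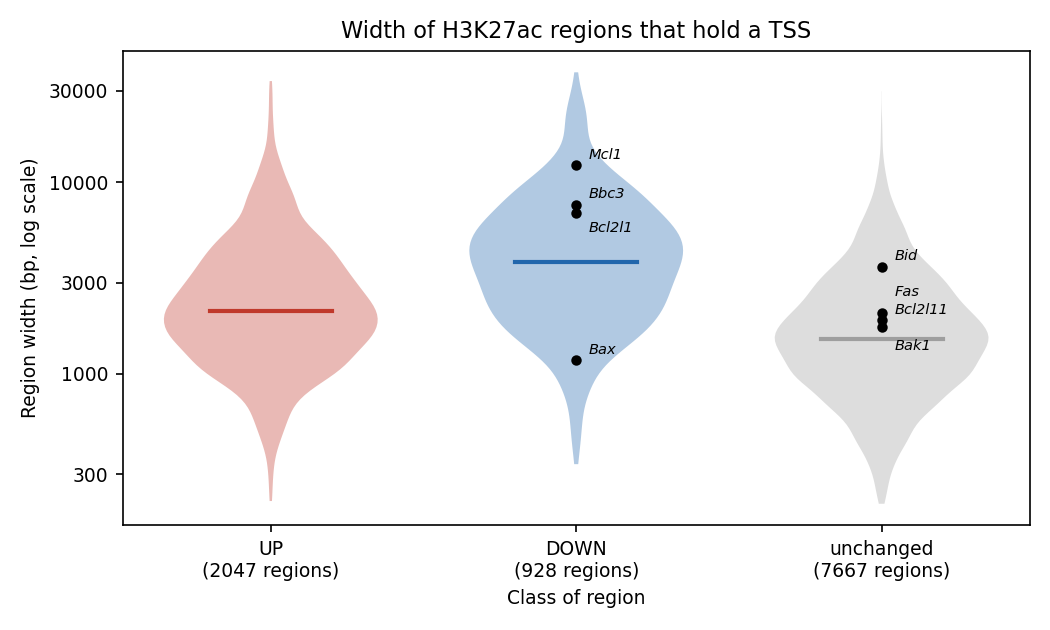
Width in bp (log scale) of all regions that hold a TSS, by class, as violins with the median as a line, and of the regions at TSSs of the 8 genes as points. Mcl1, Bbc3 and Bcl2l1 sit above the DOWN median of 3828.5 bp and Bax below it, while the points of Bid, Fas, Bcl2l11 and Bak1 sit above the unchanged median of 1530 bp.

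Widths set the 4 genes with DOWN regions apart from each other. At a TSS, UP regions had a median width of 2136 bp, DOWN regions one of 3828.5 bp and unchanged regions one of 1530 bp. The region of Mcl1 was wider than 94.5% of DOWN regions at a TSS, that of Bbc3 wider than 82.8% and that of Bcl2l1 wider than 78.9%, whereas that of Bax was wider than 5.82%. Among unchanged regions at a TSS, that of Bid was wider than 87.3%, that of Fas than 66.6%, that of Bcl2l11 than 62.6% and that of Bak1 than 57.6%.

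The regions at these genes also lay mostly downstream of the TSS. Over 8833 protein-coding genes with 1 region at their TSSs, the region reached a median of 523 bp upstream of the 5′-most TSS and 1049 bp downstream of it. It reached at most 100 bp upstream for 24.1% of these genes and for 5 of the 8 genes here (Bcl2l11, Bbc3, Bcl2l1, Bax and Bak1). Regions with an upstream arm over this limit were those of Mcl1 (1233 bp), Bid (1191 bp) and Fas (861 bp).

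**Figure D3:**
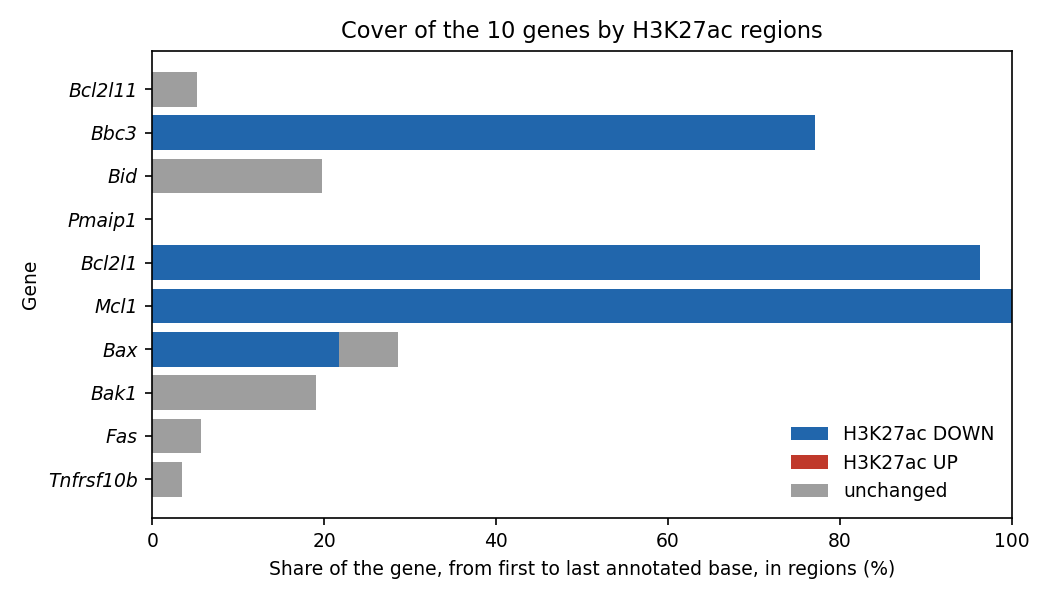
Share of each gene, from its first to its last annotated base, that lies in DOWN (blue), UP (red) or unchanged (grey) regions, as stacked bars in percent, with 1 bar per gene. DOWN regions cover 100% of Mcl1, 96.3% of Bcl2l1, 77.1% of Bbc3 and 21.7% of Bax, UP regions cover none of the 10 genes, and unchanged regions cover at most 19.7% (Bid).

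A region that overlapped the gene body but held none of the gene's TSSs was found for 5 of the 10 genes. It was DOWN for 1 (Bcl2l1, 2 regions), unchanged for 4 (Bid, Bax, Fas and Tnfrsf10b) and UP for 0. Among 5798 protein-coding genes with such a region, 19.6% had a DOWN and 29.0% an UP one. In 27 protein-coding genes, Bcl2l1 among them, the body held 2 or more DOWN regions of this kind and no other of this kind. Such a region need not lie far from a TSS or mostly in the gene. That of Tnfrsf10b began 23 bp from the nearest TSS, and that of Bax had 5.94% of its width in the gene.

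Within 50 kb of the TSSs, 3 of the 9 genes with any region had an UP region (Bid, Mcl1 and Bax) and 4 had a DOWN region (Bbc3, Bcl2l1, Mcl1 and Bax). Over 16193 protein-coding genes with a region in this window, the shares were 46.9% for UP and 27.7% for DOWN. DOWN regions outnumbered UP regions for 2 of the 9 genes (Bbc3 and Bcl2l1), beside 17.4% of all, and UP outnumbered DOWN regions for 1 (Bid), beside 37.6%. The numbers were equal for Mcl1 and Bax, and for Bcl2l11, Bak1, Fas and Tnfrsf10b neither kind was present. When a region was counted only for the protein-coding gene with the nearest TSS, the count of genes with an UP region was 1 (Mcl1).

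**Figure D4:**
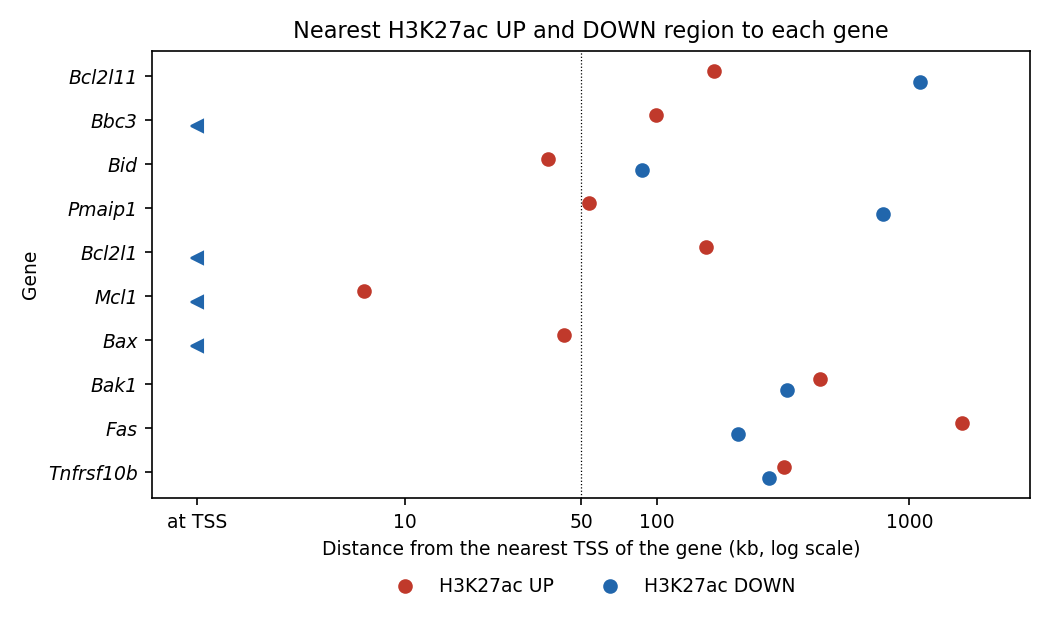
Distance in kb (log scale) from the nearest TSS of each of the 10 genes to the nearest UP (red) and the nearest DOWN (blue) region, with triangles at the left where a TSS lies in the region and a dotted line at 50 kb. DOWN regions hold TSSs of 4 genes and are 86.9 kb to 1100 kb away from the other 6, whereas UP regions are 6.91 kb (Mcl1) to 1620 kb (Fas) away from all 10.

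The other genes of the pathway were taken by textbook role, 55 genes in 9 lists with the 10 genes included. A TSS in a region was found for 41, and the region was DOWN for 5 of them (12.2%) and UP for 3 (7.32%), beside 8.91% and 21.4% of all genes. Without the 10 genes, the counts were 33, 1 (3.03%) and 3 (9.09%). The fifth gene with a DOWN region was Bok, which encodes a relative of BAX and BAK. Its DOWN region, chr1:93685706-93688365, was 2660 bp wide and held the TSS of 1 of its 5 transcripts. The TSS of 1 other transcript lay in an unchanged region of 727 bp. All 3 effector genes had a region at a TSS, DOWN for Bax and Bok and unchanged for Bak1. Of the 8 anti-apoptotic genes, Bcl2l1 and Mcl1 had a DOWN region, 2 had an unchanged one, and 4 had none. Bcl2, the founding member of the family, had 913 bp of unchanged region at its TSS. Of the 8 BH3-only genes, 1 (Bbc3) had a DOWN region, 5 had unchanged ones, and 2 had none.

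Of 5 death receptors, 2 had an unchanged region at a TSS and 3 had none, and of 3 death ligands the counts were 1 and 2. Among 6 receptor adaptors and inhibitors, Fadd, the adaptor that brings caspase-8 to FAS, had its TSS in an UP region of 1918 bp, chr7:144580900-144582817, and 4 others had unchanged regions. The 8 of 9 genes of caspases and the apoptosome that had a region, and the 6 of 7 of the IAP proteins and their mitochondrial antagonists, had unchanged regions alone, as did 70.1% of all genes with a TSS in a region. Of 6 known upstream regulators, Ddit3 (CHOP) and Trib3, a pseudokinase gene induced by ATF4 and CHOP, had TSSs in UP regions, 6277 bp and 1846 bp wide, and the other 4 in unchanged regions. The region of Ddit3 also held TSSs of Gm20492, Gm4189 and Mbd6.

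**Figure D5:**
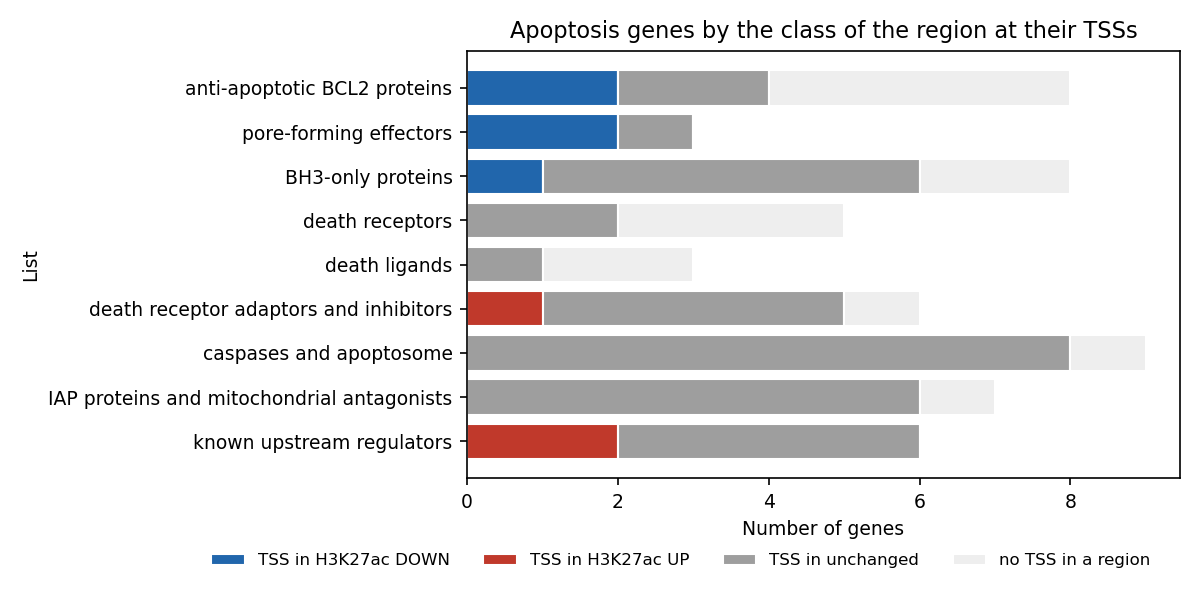
Number of genes in each of 9 lists with a TSS in a DOWN (blue), an UP (red) or only unchanged (grey) regions, or with no TSS in a region (light grey), as stacked bars. DOWN appears in the lists of anti-apoptotic proteins (2), effectors (2) and BH3-only proteins (1), and UP in those of receptor adaptors and inhibitors (1) and upstream regulators (2).

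Motifs of factors known to act on these genes were searched on both strands of mm10. They were AP-1 (TGANTCA), CRE (TGACGTCA), the ATF4/CHOP composite (TTGCATCA), UPRE (TGACGTGG), ERSE (CCAAT and CCACG with 9 bases between), FOXO (TGTTTAC), D-box (TTANGTAA) and the p53 site of 2 adjacent decamers with up to 2 mismatches outside its fixed bases. UPRE and CRE begin with the same letters, TGACGT. In RefSeq promoter windows of 300 bp, from 250 bp before to 50 bp after a start, 13 windows of 8 of the genes could be searched, and Pmaip1 and Tnfrsf10b had no entry. Matches to the ATF4/CHOP composite were found in 0 of 13 (0.895% of 32851 windows of all genes), to p53 in 0 (0.326%), CRE 0 (1.79%), UPRE 0 (0.676%), ERSE 0 (0.119%) and D-box 0 (2.32%). AP-1 was matched in 1 (Fas, beside 7.81% of all) and FOXO in 2 (Bbc3 and Bcl2l11, beside 3.65%). With up to 3 mismatches the p53 site was matched in 1 (the Bbc3 stretch above, beside 1.38%).

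Over the 46 regions at or near the 10 genes in their whole width, the p53 site was matched once in each of 3 regions, and all 3 were DOWN. They were the regions at the TSSs of Mcl1 and Bax and the region at the 3′ end of Bcl2l1, which holds no TSS. Of all regions, 7.05% of DOWN, 2.54% of UP and 2.2% of unchanged regions held a match. Since the regions are wide, matches per kb are the closer measure. They were 0.0409 over the 7 DOWN regions here (3 matches in 73.4 kb) and 0.0238 over all DOWN regions. Those 7 regions made up 73.4 kb of the 144 kb searched. With up to 3 mismatches, the p53 site was matched 7 times in DOWN regions (0.0954 per kb, beside 0.0733 over all DOWN regions). It was matched once in an UP region (0.193 per kb, beside 0.0582 over all UP regions). In unchanged regions it was matched 3 times (0.0458 per kb, beside 0.0604 over all unchanged regions). The ATF4/CHOP composite was matched once, in the unchanged region of 1165 bp upstream of Tnfrsf10b, and ERSE nowhere in the 46 regions. Of all regions, the composite was matched in 4.37% of unchanged, 7.26% of DOWN and 12.7% of UP regions, and ERSE in 0.0772%, 0.148% and 0.309%. The 3 p53 matches with up to 2 mismatches and the composite match are given with their surroundings. They are written in the direction of the gene, with the match in capitals.

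Bcl2l1, p53, chr2:152792615-152792674, minus strand: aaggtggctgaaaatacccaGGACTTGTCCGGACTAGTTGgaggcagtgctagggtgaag
Mcl1, p53, chr3:95664973-95665032, plus strand: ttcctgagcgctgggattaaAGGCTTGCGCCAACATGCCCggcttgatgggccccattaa
Bax, p53, chr7:45466569-45466598, minus strand: cccccGGGCAGGCCCGGGCTTGTCGctggc
Tnfrsf10b, ATF4/CHOP, chr14:69741104-69741151, plus strand: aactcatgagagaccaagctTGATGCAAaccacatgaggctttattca

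The match of Bcl2l1 lies in an intron, 39.1 kb downstream of the 5′-most TSS. That of Mcl1 lies 6.21 kb downstream of the TSS, past the 3′ end of the gene, and that of Bax 305 bp downstream of the TSS with an annotated exon in the stretch shown. The match near Tnfrsf10b lies 26348 bp upstream of its TSS, with no exon in the stretch. AP-1 was matched 31 times in the 7 DOWN regions (0.423 per kb, beside 0.373 over all DOWN regions). In DOWN regions at TSSs, matches numbered 9 for Mcl1 (0.735 per kb), 3 for Bbc3 (0.392), 1 for Bcl2l1 (0.145) and 0 for Bax. In the UP region 6.91 kb upstream of Mcl1, AP-1 was matched 3 times. In the UP region 28.1 kb upstream it was matched once, beside 1 UPRE match and 1 FOXO match. Of all UP regions, 63.2% held an AP-1 match, 27.9% a FOXO match and 4.39% a UPRE match. The other UPRE match in the 46 regions lay in the unchanged region that reaches the 3′ end of Bax. FOXO was matched 22 times in 14 of the 46 regions, 14 times in the DOWN regions (0.191 per kb, beside 0.176 over all DOWN regions). D-box was matched 8 times in 7 of the 46 regions. Of these matches, 4 were in DOWN regions of Bcl2l1 and Mcl1 (0.0545 per kb, beside 0.109 over all DOWN regions). A match says only that the letters are there.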

How the data were processed

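MPH were analysed by H3K27ac ChIP-seq in 8 libraries, 3 with H3K27ac and 1 input per treatment. The deposited files are 3 BED lists that the authors made, with positions in base pairs on mm10 and no counts or signal. Per the labels, reads were mapped with Bowtie and peaks called with MACS2. The paper describes duplicates and blacklisted reads as removed, broad peaks called on pooled libraries, bins of 150 bp filtered against input and normalized by loess, and a csaw test paired by experiment. Loess normalization centres changes across bins, so a shift shared by all regions would not be visible.

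Here BED starts were counted from 1, and a gene was assigned to a region that holds a TSS of any of its GENCODE M21 transcripts. Regions in gene bodies and within 50 kb of a TSS were listed. The paper's assignment with CisMapper was not repeated. No test was made. Motifs were also counted in the central 500 bp of regions at least that wide. Alternatives were other distances and overlaps, transcript types, a minimum width of 1 kb, nearest gene, base pairs, other motif windows and letters. The 10 groups by width and 3 p53 mismatches were added after seeing the data. Members and lists were chosen with earlier results of these data known.

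Genes named are the 10 members, list genes with a TSS in an UP or DOWN region, genes that share a member's region or lie at a region near it, and the nearest gene of changed regions. Bcl2 and marker genes were named after their values were seen. Sequences are shown for members with a TSS in an UP or DOWN region and for matches to the ATF4/CHOP, p53 or ERSE motifs, and those of 3 further windows were not shown. Counting functions were tested on simulated data. Python 3.11.15, numpy 2.4.6, pandas 2.3.3 and matplotlib 3.10.9 were used.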

Additional observations from a re-analysis of the deposited data

How the results depend on the processing

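Of 80 recomputed values of 23 results, 60 stayed within 1.5 times the reported count. Genes with a TSS in a DOWN region numbered 3 or 4 of 10 under the 7 alternatives run for it (TSSs within 1 kb or 10 kb, a stricter overlap, protein-coding or basic transcripts, regions of at least 1 kb, each gene counted once), with 3 where a region counted only if 500 bp on both sides of the TSS lay in it (Bax was lost). Under that overlap, unchanged fell from 4 to 2 and genes with no TSS in a region rose from 2 to 5. With TSSs within 1 kb of a region, genes with none numbered 1. Within 10 kb, they numbered 1, UP 1 (Mcl1) and unchanged 7. Genes with an UP region near a TSS, 3 within 50 kb, numbered 1 within 10 kb, 5 within 100 kb and 1 by nearest protein-coding gene. Genes with more UP than DOWN regions, 1 in the report, numbered 0 within 10 kb, from the 5′-most TSS alone, by nearest gene and with regions of at least 1 kb, and 2 within 100 kb and in base pairs. Genes with an unchanged region in the body that held none of their TSSs numbered 4. They numbered 3 where at least 50% of the region lay in the gene body, and 2 with regions of at least 1 kb. Of 41 central windows of 500 bp of the regions at or near the genes, ATF4/CHOP was matched in 0 (2.43% of all regions), and in 1 with windows of 1000 bp (4.17%) or with the letters TGATGNAA (8.85%). The p53 site was matched in 1 (0.82%), and in 3 with up to 3 mismatches (3.03%), which also moved the promoter count from 0 to 1. Of these 3 windows, 1 was in an UP region (Bid), 1 in a DOWN region (Bax) and 1 in an unchanged region (Bax). In these central windows AP-1 was matched in 12 (26.6%), FOXO in 4 (8.71%), UPRE in 1 (0.823%) and CRE (1.32%), ERSE (0.0539%) and D-box (4.88%) in 0. Over whole regions, D-box was matched in 7 of 46.

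No paired analysis was possible because the lists hold no values for single libraries, and no library could be left out either. The lists give no FDR, so no stricter threshold of the authors' test could be set. The setting with regions of at least 1 kb filters on width alone and does not replace one. The narrowest DOWN region at a TSS of these genes, that of Bax, was 1184 bp wide. The count of genes with a TSS in a DOWN region could therefore not change under that setting.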
